A study of Mus musculus with 36 samples.

Results

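The genes described here were the 4 members of the *Id* family, *Id1*, *Id2*, *Id3* and *Id4*, and the genes of the 2 inhibitory Smads, *Smad6* and *Smad7*, 6 genes chosen by name. All 6 were listed in each of the 3 deposited tables, which held 25760, 26863 and 26472 genes, and all 6 passed the filter on low values (a mean of at least 10 normalized counts) in every table. RNA was sequenced from primary mouse nephron progenitor cells (NPCs) of E16.5 kidneys, grown in the expansion medium NPEM with CHIR99021 (CHIR), an inhibitor of the kinase GSK3 that raises β-catenin and so mimics Wnt. The donors were embryos of Swiss Webster or C57Bl/6 mice, their sex was not distinguished, and the study's methods do not say which strain gave which library. Wild-type NPCs had no CHIR, low CHIR (1.25 µM, the dose used for expansion) or high CHIR (5 µM, the dose that drives differentiation), with 3 libraries each. In the β-catenin experiment, NPCs with the conditional β-catenin c/c allele received Cre mRNA or no Cre, and Cas9-eGFP NPCs received an sgRNA to *Ctnnb1*, the gene of β-catenin, or to GFP, each in low or high CHIR with 2 libraries a group. These cells were all transfected with mCherry mRNA, kept in low CHIR for a knockout period and then moved to either dose, and reporter-positive cells were taken for RNA. In the Tcf/Lef experiment, Cas9-eGFP NPCs received sgRNAs to *Tcf7l1*, *Tcf7l2*, *Tcf7* and *Lef1* (quadruple knockout, QKO) or to GFP and had a longer knockout period, with 3 libraries a group but 2 for QKO in low CHIR.

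BMP and TGFβ ligands bind paired receptors that phosphorylate receptor Smads, which enter the nucleus with Smad4 and switch on target genes. The *Id* genes are among the best-known direct targets of BMP signalling. They encode helix-loop-helix proteins without a DNA-binding domain, which hold E proteins away from DNA and are associated with keeping progenitors undifferentiated. *Smad6* and *Smad7* are targets of the same pathway and act against it, Smad6 mainly on BMP receptors and Smad7 on both BMP and TGFβ receptors. In the kidney, BMP7 supports the survival and expansion of NPCs and can prime them for Wnt-driven induction. *Id* genes are not regulated by BMP alone, and no Smad phosphorylation or protein level was measured in these libraries.

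In the GENCODE vM21 annotation of GRCm38, *Id1* (ENSMUSG00000042745) lies at chr2:152736251-152737410 on the plus strand, *Id2* (ENSMUSG00000020644) at chr12:25093799-25097140 on the minus strand and *Id3* (ENSMUSG00000007872) at chr4:136143497-136145755 on the plus strand. *Id4* (ENSMUSG00000021379) lies at chr13:48261228-48266026 on the plus strand and *Smad6* (ENSMUSG00000036867) at chr9:63953076-64022059 on the minus strand. *Id4* shares 1364 bases with Gm49291, a lincRNA on the opposite strand whose mean was 2.58, 5.36 and 4.54 normalized counts in the wild-type, β-catenin and Tcf/Lef tables. It also shares 1396 bases with the antisense gene A330033J07Rik, for which no values were used here. The strand setting of the counting is not given in the sources used here, so reads of *Id4* and of an antisense partner could not be told apart.

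Promoter sequence is shown for *Id2* and *Id4*, the 2 members that passed limma's threshold as lower after removal of β-catenin in high CHIR by both methods. RefSeq promoters (GRCm38.p6, 250 bases before and 50 bases after the start site) were matched by symbol for 4 of the 6 members, *Id2*, *Id3*, *Id4* and *Smad6*, and not for *Id1* and *Smad7*. For *Id4* the stretch printed is chr13:48260866-48261115 on the plus strand, which ends at the base before the RefSeq start site. For *Id2* it is chr12:25096254-25096342 on the minus strand, the 89 bases of the window that lie in no annotated *Id2* exon. This stretch lies inside the GENCODE *Id2* gene (chr12:25093799-25097140), which begins upstream of the RefSeq start site. Capitals mark GGCGCC, a GC-rich element bound by BMP Smads, read on both strands (it is its own reverse complement).
Id2: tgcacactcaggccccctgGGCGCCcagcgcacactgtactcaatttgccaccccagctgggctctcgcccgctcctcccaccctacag
Id4: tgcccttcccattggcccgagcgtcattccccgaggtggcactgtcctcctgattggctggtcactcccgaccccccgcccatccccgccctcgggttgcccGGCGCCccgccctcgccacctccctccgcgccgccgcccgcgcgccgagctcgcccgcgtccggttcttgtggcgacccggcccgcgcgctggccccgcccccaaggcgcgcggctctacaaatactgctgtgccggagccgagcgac
The match began 231 bases before the start site in *Id2* and 148 bases before it in *Id4*, and 11.9% of 32851 promoters of the same length held one. The shorter Smad element CAGAC or its reverse complement GTCTG was found in the *Id3* window only, starting 167 and 68 bases before the start site, against 49.6% of promoters. That window is not printed because all 300 of its bases lie in annotated *Id3* exons. The Tcf/Lef element CTTTGAT or its reverse complement ATCAAAG was in none of the 4 windows, against 3.73% of promoters. These matches describe letters in a short window and say nothing of binding, and no binding data were used here.

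The libraries held between 13089780 and 76071568 reads on genes (median 18990328). Values are normalized counts, which are reads divided by 1 size factor per library, and the tables were normalized separately, so levels are compared within a table. *Ctnnb1* was at 1040 to 1652 normalized counts with the *Ctnnb1* sgRNA against 2521 to 3397 with the GFP sgRNA in low CHIR, and at 1270 to 1630 against 2632 to 2701 in high CHIR. With Cre it overlapped the no-Cre level in high CHIR (2254 to 2583 against 2207 to 2423), and counts over the whole gene include exons that may lie outside the deleted part, so this checks nothing. *Lef1*, a target of β-catenin, was at 102 to 161 with Cre against 1090 to 1568 without Cre in high CHIR. In QKO cells *Tcf7* was at 110 to 180 against 268 to 535 and *Lef1* at 255 to 513 against 1144 to 2743 in high CHIR. *Tcf7l1* and *Tcf7l2* transcripts overlapped those of the controls at that dose. In low CHIR *Tcf7l1* was at 827 to 1286 in QKO cells against 1736 to 2225 in the controls, while *Tcf7l2* overlapped. The summed level of 8 progenitor markers was between 3658 and 32953 in the 36 libraries, and the sum of 6 markers of the induced nephron was 24388 to 33698 in wild-type high CHIR against 2979 to 5776 in low CHIR. The 6 listed stroma genes summed to between 993 and 21766, with *Tbx18* at 0 in some libraries of each table. *Col1a1* of this list was at 2293 to 18643, 1511 to 13346 and 85.1 to 7525 in the wild-type, β-catenin and Tcf/Lef tables. The 6 endothelium genes summed to 476 to 1224 in wild-type high CHIR against 308 to 359 in low CHIR. In the other tables the sum was at most 560. Among wild-type libraries *Egfl7* of this list was at 286 to 493 and *Tek* at 0 to 769 (median 2.29). *Tie1* and *Cdh5* of the same list were at 15.8 or less in all libraries. The ureteric genes summed to 1413 to 2519 in high CHIR against 663 to 928 in low CHIR in wild-type cells. In the same order they summed to 801 to 851 against 338 to 564 without Cre and 715 to 918 against 502 to 555 with the GFP sgRNA. The Tcf/Lef controls had 824 to 1152 against 474 to 800. Of this list *Hoxb7* was at 458 to 1544 and *Epcam* at 92 to 873 in wild-type libraries. *Ret*, which marks ureteric tips, was at 7.32 or less in all libraries. *Wnt9b* was listed in the Tcf/Lef table only. The part of these markers in the dose results was not tested. In bulk RNA fewer cells of a type and less RNA per cell cannot be told apart.

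The 6 genes lay at very different levels. Per kb of exon, the mean in wild-type low CHIR was 22199 normalized counts for *Id3*, 13190 for *Id2* and 6882 for *Id1*, against 89.4 for *Id4*, 67.4 for *Smad7* and 44.9 for *Smad6*. *Id4* varied most, with its highest library 20.9, 28.3 and 25.6 times its lowest in the wild-type, β-catenin and Tcf/Lef tables. For the other 5 genes this range was at most 4.88-fold in any table. The fewest reads behind any value were 38 for *Id4* and 42 for *Smad6*, so these carry the most counting error.

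Wild-type NPCs at 3 doses addressed how the genes follow CHIR. *Id4* rose with high CHIR, *Id2* was highest in low CHIR, and *Id1* and *Id3* fell from no to high CHIR. *Id4* was at 270, 258 and 171 normalized counts in no CHIR, 407, 374 and 250 in low CHIR, and 2949, 3569 and 475 in high CHIR. Every high-CHIR library lay above every other library, but replicate 3 stood far below the other 2 of its group. That library also had the lowest progenitor marker sum of its group (3658 against 7519 and 7878) and the most *Lef1* (9125 against 3811 and 4197). Its induced nephron marker sum was the lowest of the group (24388 against 30476 and 33698). The part of these differences in *Id4* was not tested. The mean in high CHIR was 6.78 times that in low CHIR, and on the log2(normalized count + 1) scale the difference was 2.34 (SE 0.62, limma adjusted p = 0.0381). Against no CHIR it was 2.90 (SE 0.62, adjusted p = 0.00765).

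**Figure D1:**
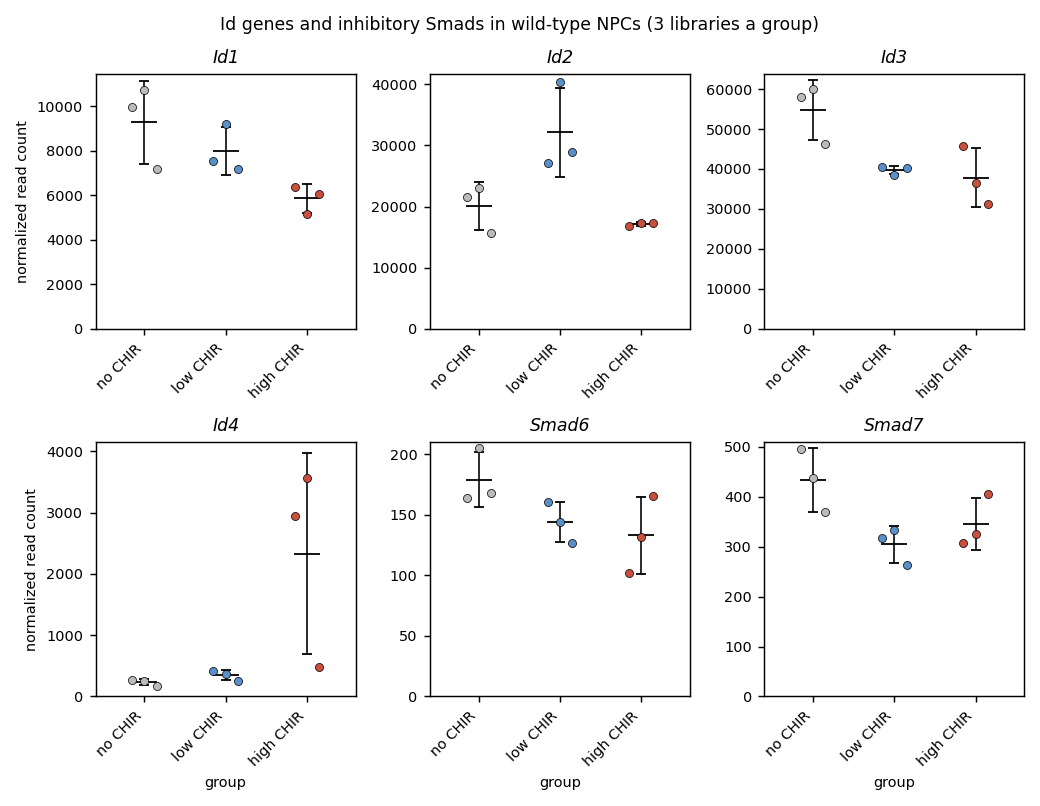
Normalized counts (y axis, linear and starting at 0, one panel a gene) of the 6 genes in the 9 wild-type libraries by CHIR dose (x axis), with 1 point a library and a bar at the group mean. *Id4* is at 475 to 3569 in high CHIR against 250 to 407 in low CHIR, and *Id2* is highest in low CHIR.

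*Id2* was at 21640, 23019 and 15677 in no CHIR, 27127, 40461 and 28880 in low CHIR, and 16841, 17377 and 17378 in high CHIR. The low-CHIR libraries lay above all others, while no and high CHIR overlapped. From low to high CHIR *Id2* fell by 0.88 on the log2 scale (SE 0.18, limma adjusted p = 0.0123), and the call held whichever library of the comparison was left out. The difference of no from low CHIR was -0.67 with an adjusted p of 0.0627, which missed the threshold.

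*Id1* was at 9965, 10717 and 7172 in no CHIR, 7527, 9225 and 7198 in low CHIR, and 6379, 5151 and 6037 in high CHIR. High CHIR lay below both other doses, which overlapped each other. *Id1* fell by 0.65 from no to high CHIR (SE 0.17, limma adjusted p = 0.0201). *Id3*, the most abundant member, was at 57943, 60048 and 46212 in no CHIR, 40558, 38603 and 40116 in low CHIR, and 45761, 36388 and 31318 in high CHIR. Its libraries without CHIR lay above all others, and low and high CHIR overlapped. *Id3* fell by 0.54 from no to high CHIR (SE 0.16, limma adjusted p = 0.0324).

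The inhibitory Smads passed no test in wild-type cells. *Smad6* was at 164, 205 and 168 in no CHIR, 160, 144 and 127 in low CHIR, and 102, 131 and 165 in high CHIR. *Smad7* (ENSMUSG00000025880, chr18:75367529-75395935 on the plus strand) was at 497, 438 and 369 in no CHIR, 318, 333 and 263 in low CHIR, and 308, 325 and 406 in high CHIR. Low CHIR lay below no CHIR for both genes, with differences of no from low CHIR of 0.31 for *Smad6* and 0.51 for *Smad7* (limma adjusted p = 0.147 for *Smad7*), while high CHIR overlapped low CHIR for both.

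A gene was called where limma's adjusted p was under 0.05 and the log2 fold change was at least 0.5 in either direction. High against low CHIR called 2 of the 6 genes (*Id4* higher, *Id2* lower) against 10.4% of all genes tested, and high against no CHIR called 3 (*Id4* higher, *Id1* and *Id3* lower) against 23.4%. No against low CHIR called none by limma against 4.97%, with 3 at an unadjusted p under 0.05, 0 called by edgeR and 1 by DESeq2 (*Id2*). The median difference of the 6 genes was -0.11, -0.39 and 0.26 in these comparisons, in the order given, against 0.01, 0.02 and 0.01 over all genes tested. In the same order, the doses did not overlap for 3, 3 and 4 of the 6 genes, against 30.8%, 39.9% and 32.7% of all genes tested. The *Id4* call in high against low CHIR depended on which libraries were in the fit. Its adjusted p was 0.112 and 0.0999 without replicates 1 and 2 of high CHIR, 0.0845, 0.0955 and 0.144 without replicates 1, 2 and 3 of low CHIR, and 1.03e-05 with a log2 difference of 3.26 without replicate 3 of high CHIR. Against no CHIR, the *Id1* call was lost without high-CHIR replicate 2 (adjusted p = 0.0665) and no-CHIR replicates 1 (0.0592) and 2 (0.0688), and the *Id3* call without high-CHIR replicates 2 (0.0830) and 3 (0.0754) and no-CHIR replicates 1 (0.0817) and 2 (0.0935), all by limma. A limma fit of only the 2 groups compared also lost the *Id3* call (0.0783), and in high against low CHIR the *Id4* call (0.0940).

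In cells with intact β-catenin, the β-catenin experiment gave 2 further sets of high against low CHIR. *Id4* rose in both, and *Id2* also rose in both. In cells without Cre *Id4* went from 65.5 and 120 normalized counts in low CHIR to 552 and 985 in high CHIR, and with the GFP sgRNA from 64.6 and 95.2 to 581 and 533. No library in high CHIR reached down to one in low CHIR. The log2 differences were 3.04 (SE 0.51, limma adjusted p = 0.00182) without Cre and 2.81 (SE 0.51, adjusted p = 0.00350) with the GFP sgRNA.

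*Id2* went from 22990 and 26341 to 50251 and 45195 without Cre, and from 17377 and 22880 to 38815 and 41403 with the GFP sgRNA. The doses did not overlap in either set. It rose by 0.95 (SE 0.22, limma adjusted p = 0.0160) and 1.01 (SE 0.22, adjusted p = 0.0128). The *Id2* calls were lost by limma without replicate 1 of high or of low CHIR in cells without Cre. With the GFP sgRNA the call was lost without replicate 1 or 2 of high CHIR or replicate 1 of low CHIR. Each of these fits left 1 library in a group. Over the fits that left out 1 library the *Id2* difference was 0.86 to 1.05 without Cre and 0.81 to 1.21 with the GFP sgRNA. In cells without Cre, a limma fit of only the 2 groups compared also lost the *Id2* call (adjusted p = 0.180).

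*Id1* and *Id3* were higher in high CHIR in these cells too, without passing limma's test over all libraries of the table. *Id1* was at 3810 and 4561 in low CHIR and 6474 and 6926 in high CHIR without Cre, and at 4086 and 3858 against 7080 and 6749 with the GFP sgRNA. *Id3* was at 29066 and 35812 against 41047 and 43779 without Cre, and at 24949 and 28004 against 43111 and 44547 with the GFP sgRNA. The doses did not overlap for either gene. The limma differences were 0.68 for *Id1* (adjusted p = 0.115) without Cre, and 0.80 for *Id1* (0.0696) and 0.73 for *Id3* (0.129) with the GFP sgRNA. *Smad6* was at 91.1 and 115 against 122 and 197 without Cre and at 66.6 and 80.1 against 108 and 160 with the GFP sgRNA. *Smad7* was at 208 and 197 against 226 and 277, and at 158 and 171 against 297 and 307. Neither inhibitory Smad passed that test, with adjusted p of 0.223 and 0.203 at differences of 0.84 and 0.88 with the GFP sgRNA. With the GFP sgRNA, DESeq2 called *Id1* as well (adjusted p = 0.0302), and a limma fit of only the 2 groups compared called *Id1* (0.0132), *Id3* (0.0389) and *Smad7* (0.0466).

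Of the 6 genes, 2 were called in cells without Cre against 8.05% of all genes tested, and the same 2 with the GFP sgRNA against 7.51%, all higher. The 2 doses did not overlap for any of the 6 genes, but with 2 libraries a group this was true of 47.1% of all genes tested without Cre and 57.8% with the GFP sgRNA. With the GFP sgRNA all 6 genes had an unadjusted p under 0.05, and their median difference was 0.86 against 0.00 over all genes.

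**Figure D2:**
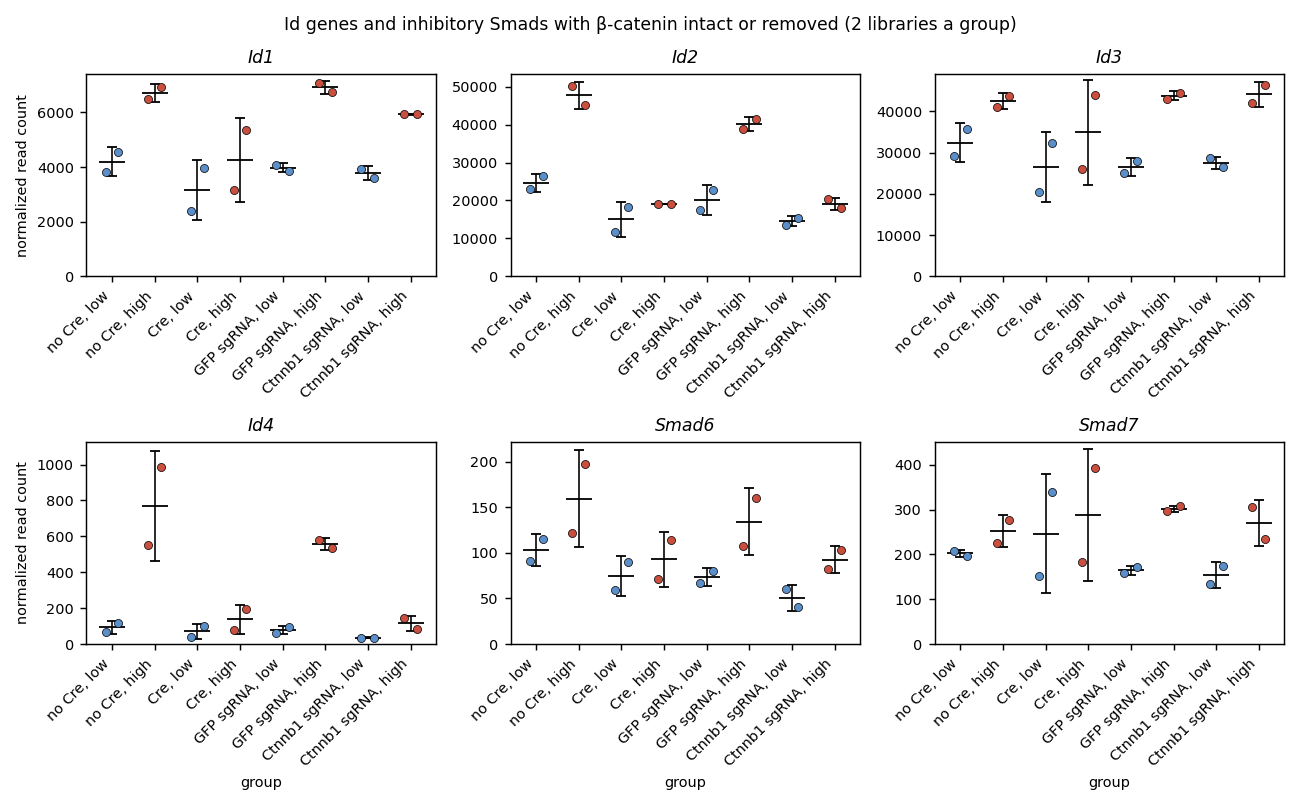
Normalized counts (y axis, linear and starting at 0, one panel a gene) of the 6 genes in the 16 libraries of the β-catenin experiment by cell and CHIR dose (x axis), with 1 point a library and a bar at the group mean. In high CHIR *Id4* is at 80.8 to 195 with β-catenin removed against 533 to 985 with β-catenin intact.

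Removal of β-catenin addressed which of these levels depend on it. In high CHIR *Id2* and *Id4* were called lower by both methods. *Id4* was at 80.8 and 195 with Cre against 552 and 985 without, and at 146 and 85.4 with the *Ctnnb1* sgRNA against 581 and 533 with the GFP sgRNA. The groups stood far apart by either method. *Id4* fell by 2.54 with Cre (SE 0.51, limma adjusted p = 0.00596) and by 2.30 with the *Ctnnb1* sgRNA (SE 0.51, adjusted p = 0.0192). *Id2* was at 19175 and 19049 with Cre against 50251 and 45195, and at 20289 and 17909 with the *Ctnnb1* sgRNA against 38815 and 41403. These levels overlapped, or lay below, those of the intact cells in low CHIR. *Id2* fell by 1.32 (SE 0.22, limma adjusted p = 0.00183) and by 1.07 (SE 0.22, adjusted p = 0.0132). These comparisons share the high-CHIR control libraries with the dose comparisons above.

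The other 4 genes passed no test in high CHIR without a replicate block. *Id1* was at 3163 and 5341 with Cre against 6474 and 6926, a limma difference of -0.70 with an adjusted p of 0.104, and at 5923 and 5950 with the *Ctnnb1* sgRNA against 7080 and 6749. *Id3* was at 25965 and 43859 with Cre, overlapping the controls, and at 42034 and 46310 with the *Ctnnb1* sgRNA, also overlapping them. *Smad6* was at 71.7 and 114 with Cre and 82 and 103 with the *Ctnnb1* sgRNA, below the controls in both. *Smad7* was at 184 and 392 with Cre and 306 and 234 with the *Ctnnb1* sgRNA, overlapping the controls in both.

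Removal in high CHIR called 2 of the 6 genes lower by Cre against 8.65% of all genes tested, and 2 lower by Cas9 against 5.09%. The median difference of the 6 was -0.74 and -0.37, against -0.02 and 0.00 over all genes. Groups did not overlap for 4 of the 6 by either method, against 47.3% of all genes tested by Cre and 61.3% by Cas9. The sum of the induced nephron markers moved with *Id4* and *Id2*, at 3113 to 3482 with Cre against 18748 to 20866 and at 4912 to 7417 with the *Ctnnb1* sgRNA against 23172 to 24534. The sum of the 6 stroma genes was 5784 to 10439 with Cre against 3714 to 4771, and 9862 to 13510 against 3500 to 9383 by Cas9. Their part in the result was not tested. Of the Cre calls, that of *Id4* was lost without no-Cre replicate 2 or Cre replicate 1, while its difference stayed between -3.17 and -1.91. Without Cre replicate 2 the *Id1* difference was -1.08. By Cas9 the *Id2* call was lost without any 1 of the 4 libraries, while its difference stayed between -1.16 and -0.98. The *Id4* call was lost without GFP replicate 1 or 2 or *Ctnnb1* sgRNA replicate 2, and its difference ran from -2.69 to -1.92. Each of these fits left 1 library in a group.

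In low CHIR and without a replicate block, removal called none of the 6 genes by limma, by edgeR or by DESeq2. In these fits 1 of the 6 had an unadjusted p under 0.05 by either method, against 0.328% of all genes called by Cre and 0.0536% by Cas9. With the replicate number as a block, limma called *Id2* by Cre (adjusted p = 0.0412), though no label states a pairing. *Id2* was at 11809 and 18166 with Cre against 22990 and 26341, and at 13536 and 15427 with the *Ctnnb1* sgRNA against 17377 and 22880. It lay below the controls by both methods, with limma differences of -0.75 and -0.46 that missed the threshold without the block. *Id4* was at 41.4 and 102 with Cre, overlapping its controls, and at 34.7 and 36.7 with the *Ctnnb1* sgRNA, below them. *Id1* was at 2387 and 3950 with Cre and 3945 and 3588 with the *Ctnnb1* sgRNA, and *Id3* at 20460 and 32435, and at 28580 and 26461. *Smad6* was at 59 and 90.1, and at 60.3 and 40.4, and *Smad7* at 152 and 340, and at 134 and 174. All of these but *Smad6* overlapped their controls, and *Smad6* lay below them by both methods. Groups did not overlap for 2 of the 6 genes by Cre and 3 by Cas9, against 34.3% and 30.1% of all genes tested.

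In the cells with β-catenin removed, high against low CHIR called none of the 6 genes by limma without a replicate block. With the replicate number as a block, limma called *Id1*, *Id3* and *Id4* with the *Ctnnb1* sgRNA (adjusted p = 0.0409, 0.0463 and 0.00747), though no label states a pairing. The study reports a partial reduction of β-catenin protein by immunostaining for both methods. The part of the remaining β-catenin in the responses of these cells was not tested. With the *Ctnnb1* sgRNA *Id4* went from 34.7 and 36.7 to 146 and 85.4, and *Id1* from 3945 and 3588 to 5923 and 5950. *Id3* went from 28580 and 26461 to 42034 and 46310, a limma difference of 0.68 beside 0.73 in the GFP controls. All 6 genes were higher in every high-CHIR library, against 44.5% of all genes whose doses did not overlap. Of the 6, 4 had an unadjusted p under 0.05, edgeR called 0 and DESeq2 called 1 (*Id4*, adjusted p = 0.0467), against 0.763% of all genes called by limma. With Cre only *Id2* did not overlap between the doses, against 27.9% of all genes, and 0 of the 6 genes had an unadjusted p under 0.05 or were called by limma, edgeR or DESeq2, against 0.292% of all genes called.

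Whether the CHIR response itself differed was tested as an interaction of removal and dose. *Id4* responded by 2.10 less on the log2 scale with Cre than without (SE 0.72, limma adjusted p = 0.305) and by 1.19 less with the *Ctnnb1* sgRNA than with the GFP sgRNA (SE 0.72, adjusted p = 0.819), and neither passed. The differences for *Id2* were -0.57 and -0.61. In fits without a replicate block, none of the 6 genes was called by limma, edgeR or DESeq2 in either interaction, with 1 and 0 at an unadjusted p under 0.05, against 0.995% and 0.518% of all genes.

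The Tcf/Lef experiment addressed the same dependence for the DNA-binding partners of β-catenin. In the GFP controls *Id4* rose with CHIR and the other 5 genes passed no test. *Id4* went from 144, 144 and 86.5 normalized counts in low CHIR to 930, 2215 and 878 in high CHIR, a rise of 3.31 (SE 0.36, limma adjusted p = 8.41e-05). The call held whichever library of the comparison was left out. *Id2* stayed between 20142 and 25562 in low CHIR and 22307 and 26251 in high CHIR, where it had risen in the controls of the β-catenin experiment. *Id1* was at 3948, 3436 and 4357 against 4853, 3603 and 4907, and *Id3* at 32530, 24276 and 29251 against 31162, 23936 and 32516. Both overlapped between the doses. Of the 6 genes 1 was called, against 14.9% of all genes tested.

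In QKO cells in high CHIR *Id2* was at 14979, 13432 and 16226 against 22307, 23273 and 26251 in the controls. The groups did not overlap, and *Id2* fell by 0.69 (SE 0.12, limma adjusted p = 0.0133). *Id4* was at 304, 600 and 474 against 930, 2215 and 878, again without overlap, a difference of -1.46 (SE 0.36) whose adjusted p of 0.0564 missed the threshold. With the replicate number as a block, which pairs the libraries of this table, its adjusted p was 0.00544 and *Id4* was called. It was also called by DESeq2 (adjusted p = 0.00104) and, by limma, without GFP replicate 3 (0.0430), and the *Id2* call was lost without QKO replicates 1 (0.0585) or 2 (0.0867). Of the 6 genes 1 was called against 2.54% of all genes tested, and 2 with the block. The groups did not overlap for 2 of the 6, against 19.9% of all genes tested. The induced nephron marker sum was 10473 to 20051 in QKO against 21545 to 37881 in the controls, and its part in the result was not tested.

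*Id1* and *Id3* overlapped between QKO and control in high CHIR, with *Id1* at 4380, 3886 and 5243 and *Id3* at 30612, 27180 and 31700 in QKO cells. The inhibitory Smads varied more among the controls than between groups. *Smad6* was at 157, 114 and 46.8 in the controls and 73, 56.1 and 62.7 in QKO cells. *Smad7* was at 280, 164 and 101.0 in the controls and 156, 128 and 136 in QKO cells. For both genes GFP replicate 3 was the lowest and replicate 1 the highest of the controls, in low CHIR as well (169, 100.7 and 36.3 for *Smad6*, 340, 200 and 90.8 for *Smad7*).

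**Figure D3:**
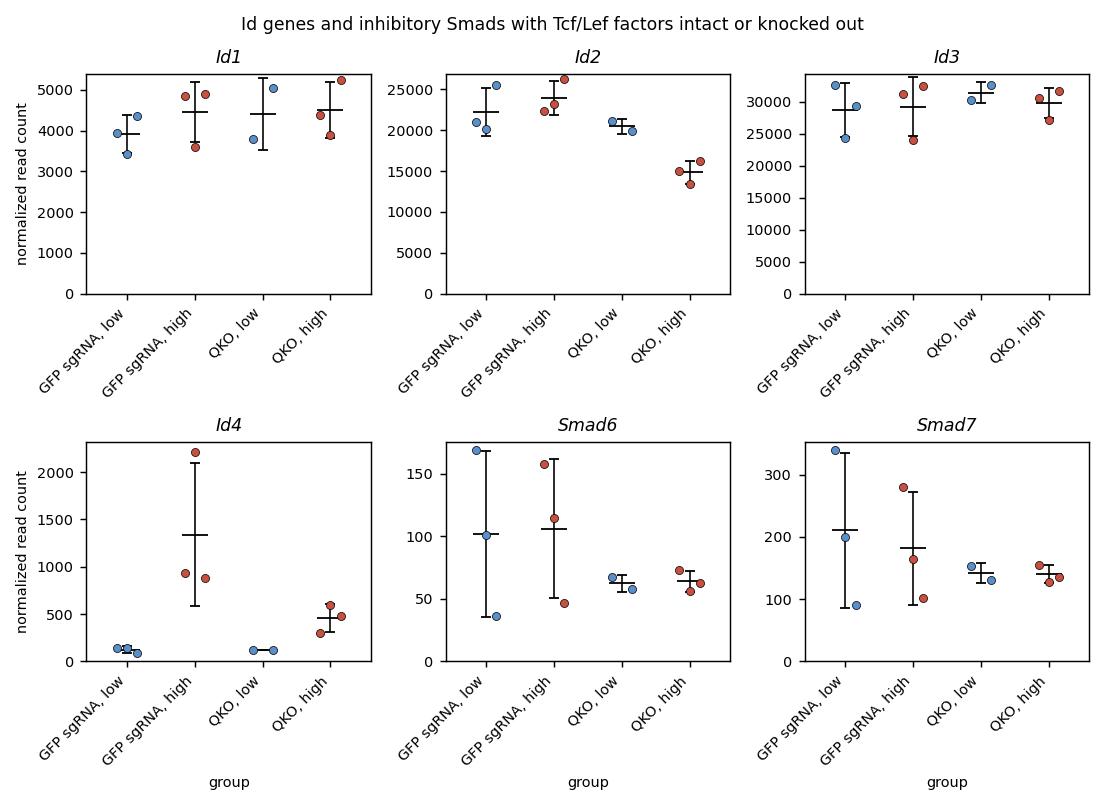
Normalized counts (y axis, linear and starting at 0, one panel a gene) of the 6 genes in the 11 libraries of the Tcf/Lef experiment by sgRNA and CHIR dose (x axis), with 1 point a library and a bar at the group mean. *Id2* in QKO cells in high CHIR (13432 to 16226) lies below all other groups, and *Id4* in QKO cells (304 to 600) lies between the doses of the controls.

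In low CHIR QKO called none of the 6 genes by limma, edgeR or DESeq2, with 0 at an unadjusted p under 0.05, against 0.0063% of all genes. *Id2* was at 21094 and 19859, *Id4* at 121 and 123, *Id1* at 3784 and 5038 and *Id3* at 30191 and 32520 in QKO cells, all overlapping the controls. *Smad6* was at 67.4 and 57.7 and *Smad7* at 153 and 131, within the spread of the controls.

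Within QKO cells *Id4* still rose with CHIR, by 1.85 (SE 0.40, limma adjusted p = 0.0345). It was the 1 gene of the 6 called, against 2.54% of all genes. That call was lost without QKO replicates 2 (0.143) or 3 (0.108) of high CHIR or replicates 1 (0.175) or 3 (0.164) of low CHIR. *Id2* went the other way, with a difference of -0.46 (limma adjusted p = 0.119) and every high-CHIR library below both low-CHIR libraries. The doses did not overlap for 2 of the 6 genes, against 38.1% of all genes tested. The interaction of QKO and dose was -1.46 for *Id4* (SE 0.54, limma adjusted p = 0.721) and -0.58 for *Id2*. It called none of the 6 genes by limma, edgeR or DESeq2, with 2 at an unadjusted p under 0.05, against 0.126% of all genes.

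**Figure D4:**
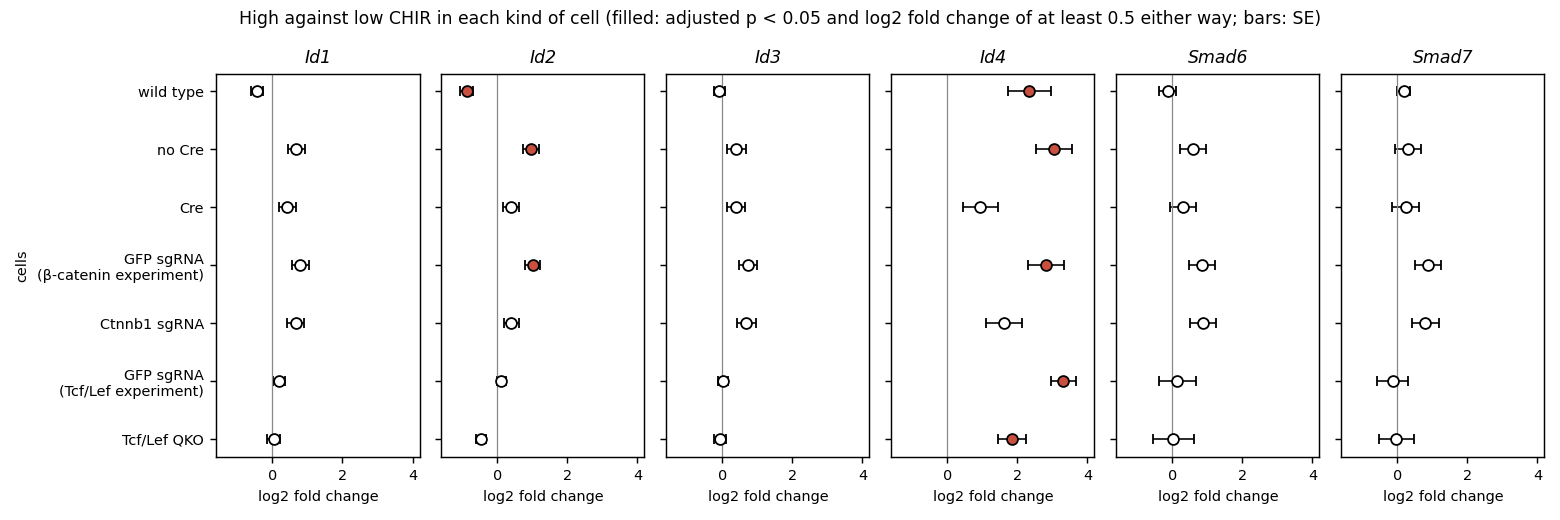
Log2 fold change of high against low CHIR (x axis) of the 6 genes (one panel each) in each kind of cell (y axis), with bars for the standard error and filled points where limma called the gene. *Id4* is above 0 in every kind of cell, from 0.94 with Cre to 3.31 in the Tcf/Lef controls, while *Id2* runs from -0.88 in wild-type cells to 1.01 with the GFP sgRNA.

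Over all kinds of cell, *Id4* was higher on average in high CHIR, while *Id2* was not. *Id4* differed between high and low CHIR by 2.34 in wild-type cells, 3.04 without Cre, 2.81 and 3.31 in the 2 sets of GFP controls, 1.85 in QKO cells, 1.62 with the *Ctnnb1* sgRNA and 0.94 with Cre, of which the first 5 were called. *Id2* was lower in high CHIR in wild-type and QKO cells, higher in the controls of the β-catenin experiment, and overlapped in the Tcf/Lef controls. The doses were the same in all 3 experiments, but each table was normalized separately, only the later 2 experiments used transfection and a knockout period, and differences between tables were not tested.

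The pattern of each gene over the 36 libraries, centred within each table, was compared with 14952 genes by Pearson's r of log2(normalized count + 1). These r values are descriptions, since the libraries share groups and doses. *Id1* and *Id3* were each other's nearest gene (r = 0.88), as the pair *Smad6* and *Smad7* nearly were (r = 0.80), *Enah*, an actin regulator, lying closer to *Smad6* (0.82). For *Id2* the nearest were *Ifitm10* (0.82), *Sdad1* (0.77) and *Mindy3* (0.76). For *Id4* they were *Shisa2* (0.94), *Sox11* (0.94), a transcription factor of developing tissues, and *Lrp4* (0.94), a receptor of the LDL receptor family. The r of *Id4* with the other 5 genes lay between 0.26 and 0.43. *Atoh8*, a helix-loop-helix factor, was among the 3 nearest to *Id3* (0.65).

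The rest of the pathway was described from a list of 56 genes, of which 50, 48 and 46 were tested in the wild-type, β-catenin and Tcf/Lef tables. High against low CHIR called 12 of them higher and 7 lower in wild-type cells, 11 and 6 without Cre, 10 and 4 with the GFP sgRNA and 13 and 6 in the Tcf/Lef controls, where 10.4%, 8.05%, 7.51% and 14.9% of all genes tested were called. The median difference of the tested list in wild-type cells was 0.10, against 0.01 over all genes. Among ligands, *Bmp7* rose in wild-type high CHIR (3.58, limma adjusted p = 0.00014). Among receptors, *Bmpr1b*, a type I receptor, rose by 2.36 in wild-type cells and by 3.27 without Cre. None of the 6 Smads that carry the signal was called in any comparison but *Smad9* with the GFP sgRNA (1.52, limma adjusted p = 0.0454). Among secreted modulators, *Bmper*, which binds BMPs outside the cell, fell by 4.97 in wild-type cells.

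Among membrane regulators, *Bambi*, a receptor-like inhibitor that is itself a BMP target, rose by 3.03 in wild-type high CHIR. It was not called in the other intact cells, where its mean went from 325 to 242 without Cre, 186 to 238 with the GFP sgRNA and 251 to 351 in the Tcf/Lef controls. Of the 10 other BMP targets tested, 6 were called higher and 2 lower in wild-type high CHIR, with a median difference of 2.64. The Tcf/Lef controls had the same counts and a median of 2.62. Of the 9 tested in the β-catenin experiment, 4 were called higher and 2 lower without Cre, and 4 and 1 with the GFP sgRNA. In wild-type cells *Gata3* rose by 5.39 and *Dlx5* by 4.79 (SE 1.24). *Msx1*, a homeobox gene, was also called higher there, at 978, 403 and 18058 in high CHIR against 5.26 to 9.58 in low CHIR. Replicate 3 carried most of its mean. *Tmem100* fell by 4.36 without Cre. Of the E proteins, the partners of Id proteins, *Tcf4* (an E protein, not a Tcf/Lef factor) rose by 0.92 without Cre and by 0.62 with the GFP sgRNA.

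Removal of β-catenin in high CHIR called 5 of the list higher and 7 lower by Cre, and 4 higher and 4 lower by Cas9, while QKO called 2 higher and 2 lower, where 8.65%, 5.09% and 2.54% of all genes tested were called. *Bmpr1b* fell in all of these (by 2.46, 1.42 and 1.19) and *Tmem100* rose in all of them (4.15, 4.07 and 3.04). *Tcf4* fell by 0.92 and 0.64 in the removals by Cre and Cas9. With β-catenin removed, high against low CHIR called 0.292% and 0.763% of all genes tested in the Cre and *Ctnnb1* sgRNA cells. In each of these kinds of cell 3 genes of the list were still called higher and 0 lower. These were the same genes, the ligand *Bmp2* (2.45 and 3.09), *Bmpr1b* (1.85 and 1.60) and *Hey1*, a target of Notch and BMP (3.13 and 2.85). No listed gene was called in removal or QKO in low CHIR.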

How the data were processed

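RNA-seq libraries of NPCs (36 in 3 tables) were grouped by their labels. The signal in each table is a normalized count that the authors deposited, gene counts divided by DESeq2's size factor of each library. Per the study's methods and the submitters' notes, SMARTer cDNA read as paired ends was aligned by STAR to a joint reference of GRCm38 and GRCh38, and unique reads were counted per gene with featureCounts. The authors' comparison tables of log2 fold changes and p-values, and 50 columns of values in them, were not used.

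Whole reads were recovered from the smallest step of each library (100% of values within 0.1 reads of a whole number) and give the depth behind each value, 13089780 to 76071568 reads. The main test was limma 3.58.1 (R 4.3.3), with a variance trend and group means over all libraries of a table, on log2(normalized count + 1), which understates the change of low genes. Genes with a mean of at least 10 were tested and p-values adjusted over all of them by the Benjamini-Hochberg method. A gene was called at an adjusted p under 0.05 where it also differed by at least 0.5 on the log2 scale. Exact tests of 3 against 3 libraries or fewer cannot pass 0.05. Alternatives were a pseudocount of 0.5, no filter, TMM scaling, edgeR 4.0.16 and DESeq2 1.42.0 on recovered reads, only the groups compared, the replicate number as a block, and each library left out. Steps were tested on simulated data.

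Replicate numbers were checked by the correlation, across genes, of deviations from group means. In the Tcf/Lef table the pairing held in all pairs (0.37, 0.25 and 0.37 between QKO and GFP libraries in high CHIR, 0.53, 0.34 and 0.63 between the doses of the GFP libraries), so the block is given beside a result there where it changed the call. Nothing given says that libraries of a group came from separate animals, so p-values measure only the spread between these libraries. The members, the pathway and marker lists and the tests were chosen with earlier results of these data known. Pathway genes were named as the 3 called genes of largest change in each list with a mean of at least 50, and of these only some are printed.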

Additional observations from a re-analysis of the deposited data

Results flagged for a closer look

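*Id1* and *Id2* moved in opposite directions between high and low CHIR in different sets of cells. In each set named below, every high-CHIR library lay on 1 side of every low-CHIR library. Of all genes tested, the doses did not overlap for 30.8% in wild-type cells, 38.1% in QKO cells and 27.9% with Cre. This share was 47.1% without Cre, 57.8% with the GFP sgRNA and 44.5% with the *Ctnnb1* sgRNA. For *Id1* the log2 difference was -0.44 in wild-type cells, against 0.68 without Cre, 0.80 with the GFP sgRNA and 0.66 with the *Ctnnb1* sgRNA of the β-catenin experiment. None of these *Id1* differences was called by limma. For *Id2* it was -0.88 in wild-type cells and -0.46 in QKO cells, against 0.95 without Cre, 1.01 with the GFP sgRNA, 0.38 with Cre and 0.40 with the *Ctnnb1* sgRNA. Of these, limma called the wild-type, no-Cre and GFP sgRNA differences. The difference between the sets was not tested, since the 3 tables were normalized separately.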

How the results depend on the processing

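Single genes were counted in the 66 results that were called or differed by at least 0.3 on the log2 scale. Smaller differences were left out of these counts. Of 462 values under another setting, 439 kept their direction and side of the threshold, 3 fell below it, 20 passed it and 0 changed sign. Leaving out 1 library, 292 of 332 kept both, 32 fell below, 2 passed and 6 changed sign. TMM scaling, the smaller pseudocount and edgeR changed no count of called genes. Fitting only the groups compared called 1 gene in wild-type high against low CHIR (2 in the main test), 1 in no against low CHIR (0), 2 in high against no CHIR (3), 1 without Cre (2) and 5 with the GFP sgRNA (2). DESeq2 called 1 in no against low CHIR (0), 3 with the GFP sgRNA (2), 1 with the *Ctnnb1* sgRNA (0) and 2 for QKO in high CHIR (1), and no filter also gave 2 there. The cause was not tested, except that these fits use fewer samples, another model or more genes.

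With the replicate number as a block, 1 gene was called in wild-type no against low CHIR (*Id2*), 1 in Cre removal in low CHIR (*Id2*), 4 in high against low CHIR with the GFP sgRNA (*Id1* and *Id3* added), 3 with the *Ctnnb1* sgRNA (*Id1*, *Id3* and *Id4*), 1 in the interaction with Cre (*Id4*, adjusted p = 0.0118) and 2 for QKO in high CHIR (*Id4* added). It also added *Id1* in Cre removal in high CHIR and in high against low CHIR without Cre (3 genes each), and it changed no other call. The correlations of deviations were 0.15, 0.04 and 0.09 between high and low CHIR in wild-type cells. In the β-catenin table they were 0.14 to 0.52, which is a hint that numbers pair its libraries, but groups of 2 give 1 value a comparison and no label states a pairing. Both were treated as unpaired in the main tests.

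Leaving out each library in turn, the genes called ranged from 1 to 2 in wild-type high against low CHIR, 1 to 3 in high against no CHIR, 1 to 3 in Cre and 0 to 1 in Cas9 removal in high CHIR, 1 to 2 in high against low CHIR both without Cre and with the GFP sgRNA, 0 to 2 for QKO in high CHIR and 0 to 1 between doses in QKO cells. Among the 66 results, signs changed for Cre removal in low CHIR in *Id3* (-0.66 to 0.0077) and *Id4* (-1.08 to 0.20). They also changed for Cre removal in high CHIR in *Id3* (-0.71 to 0.049) and for *Smad6* between doses with Cre (-0.025 to 0.64). For QKO in low CHIR they changed in *Smad6* (-1.05 to 0.040) and *Smad7* (-0.88 to 0.070). None of these was called, and signs of differences under 0.3 were not followed. Groups of 2 and values of 38 reads or more limit what *Id4*, *Smad6* and *Smad7* can show.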
